A study of Homo sapiens with 8 samples.

Results

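GXYLT1, a xylosyltransferase of the Notch pathway, was measured together with 9 genes of Notch glycosylation and signalling in DLD-1 cells, an established line of human colorectal adenocarcinoma. The 10 genes are GXYLT1, GXYLT2, POGLUT1, POFUT1, LFNG, NOTCH1, NOTCH2, NOTCH3, JAG1 and HES1, and all 10 had probe sets, out of 19752 genes measured. Every probe set that names 1 of these genes and no other was taken, which gave 27 of 54613 probe sets. A single further probe set, shared by NOTCH2 and its NOTCH2NL relatives, was left out. GXYLT1 heads the list because of its low level after miR-143 in these same arrays, so its differences are given as a description with no test. The other 9 genes were listed for their roles.

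DLD-1 cells were transfected by lipofection with 50 nM of a duplex that mimics mature miR-143 (4 cultures) or were mock transfected (4 cultures), and RNA was taken after 24 h. Each culture was measured on its own Affymetrix array, and all 8 arrays are of 1 cell line, with no array of a scrambled duplex in the comparison. Values are on the log2 scale made by RMA, a method that corrects background, equalises the arrays and combines the probes of a set, so a difference of 1 is a doubling. Array medians lay between 7.15 and 7.24. The table used holds no detection calls, so whether a probe set near the array median was above background is not known.

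Notch receptors carry sugars on the EGF repeats of their outer part. POGLUT1 adds glucose to these repeats, GXYLT1 and GXYLT2 add a first xylose to that glucose, and POFUT1 adds fucose, which LFNG and its relatives extend with N-acetylglucosamine. Ligands such as JAG1 bind the repeats of a receptor on a neighbouring cell, the receptor is cut, and its inner part enters the nucleus and switches on genes such as HES1. In the intestine Notch signalling keeps progenitor cells dividing and restrains secretory fates, and HES1, a repressor, is its best known target there.

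The sequences of both miR-143 arms are shown because the duplex was modelled on mature miR-143, and those of the other human miRNAs with the same seed are given for comparison. Sequences are from RefSeq (GRCh38.p14), 5′ to 3′, with bases 2 to 8, the seed, in capitals. The arms lie on chromosome 5, plus strand, at chr5:149428978-149428998 for the 3p arm and chr5:149428944-149428965 for the 5p arm. Of 2545 mature human miRNAs in the table used, 3 carried the seed of the 3p arm, itself included.
hsa-miR-143-3p: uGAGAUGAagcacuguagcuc
hsa-miR-143-5p: gGUGCAGUgcugcaucucuggu
hsa-miR-4770: uGAGAUGAcacuguagcu
hsa-miR-6088: aGAGAUGAagcgggggggcg
An mRNA that pairs with the whole seed of the 3p arm carries TCATCTC, and a following A makes it TCATCTCA. Transcript sequences were not used here, so the genes were not searched for this word.

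Both arrays numbered 4 lay far from the rest, at 25.7 (miR-143) and 26.7 (mock) on a first principal component that held 66.9% of the variance, against −18.8 to −4.3 for the other 6 arrays. Medians of the pathway lists are therefore also given without mock replicate 4 and without both arrays of this number. With only mock replicate 4 left out, miR-143 replicate 4 stays in and the groups are no longer balanced for this displacement. A shift in that fit alone is therefore not read as dependence on 1 array. The fit without both arrays keeps the groups balanced. The mirror fit without miR-143 replicate 4 is not given for the lists. Of 8 markers of colorectal epithelium, EPCAM lay between 13.40 and 13.99 and KRT18 between 14.35 and 15.20. KRT20 lay between 10.27 and 11.08, and CDH1, KRT8 and CDH17 lay between 9.69 and 13.23. CDX2 lay lower, at 8.04 to 8.66, and VIL1, a brush border protein, lay near the array median at 7.47 to 7.69. The 10 markers of fibroblasts, muscle, endothelium and leukocytes lay between 6.61 and 8.29, and none of the 18 markers passed the test between groups. Over all 19752 genes, limma without pairs called 0 genes (477 had an unadjusted p under 0.05), and limma with the replicate number as a pair called 123 lower (0.623%) and 33 higher (0.167%).

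GXYLT1 lay lower in all 4 miR-143 cultures than in any mock culture. Its brightest probe set, 226868_at, read 9.27, 9.23, 9.07 and 9.46 in miR-143 replicates 1 to 4, against 10.04, 9.76, 9.86 and 10.03 in mock replicates 1 to 4. The highest miR-143 array thus stayed below the lowest mock array. The means were 9.26 ± 0.16 with miR-143 and 9.92 ± 0.13 in mock (SD, n = 4 each), a log2 difference of −0.67 with a standard error of 0.10. This is a ratio of 0.63, or a level 37% lower. An array reads the RNA of a whole culture, so fewer cells with the transcript and less of it per cell cannot be told apart. Between arrays of the same number the difference was −0.77, −0.53, −0.80 and −0.57 for replicates 1 to 4, so both arrays of replicate 4 lay high but their difference did not stand apart. Among all genes this was the 4th most negative log2 difference, between GOLM1 at −0.74 and HINT3 at −0.63. Groups that did not overlap were found with miR-143 lower in 1.24% of all genes and higher in 0.719%, and nothing is read from this for GXYLT1, which was chosen on these values.

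The other probe set of GXYLT1, 232021_at, also lay lower with miR-143, by a smaller amount. It read 7.83, 7.61, 7.69 and 7.68 in miR-143 replicates 1 to 4, against 7.85, 7.96, 7.99 and 8.09 in mock replicates 1 to 4. The groups did not overlap, but miR-143 replicate 1 and mock replicate 1 were only 0.02 apart. Its log2 difference was −0.27 with a standard error of 0.07, and the mean of both probe sets gave −0.47 for the gene. Over the 8 arrays the 2 probe sets had a Pearson correlation of 0.79, and after the group means were taken out it was 0. Mock replicate 4 was among the highest arrays of its group in both probe sets, while miR-143 replicate 4 was the highest of its group in 226868_at only. RefSeq names 7 pseudogenes of GXYLT1, and whether either probe set also reads their transcripts is not known here.

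**Figure D1:**
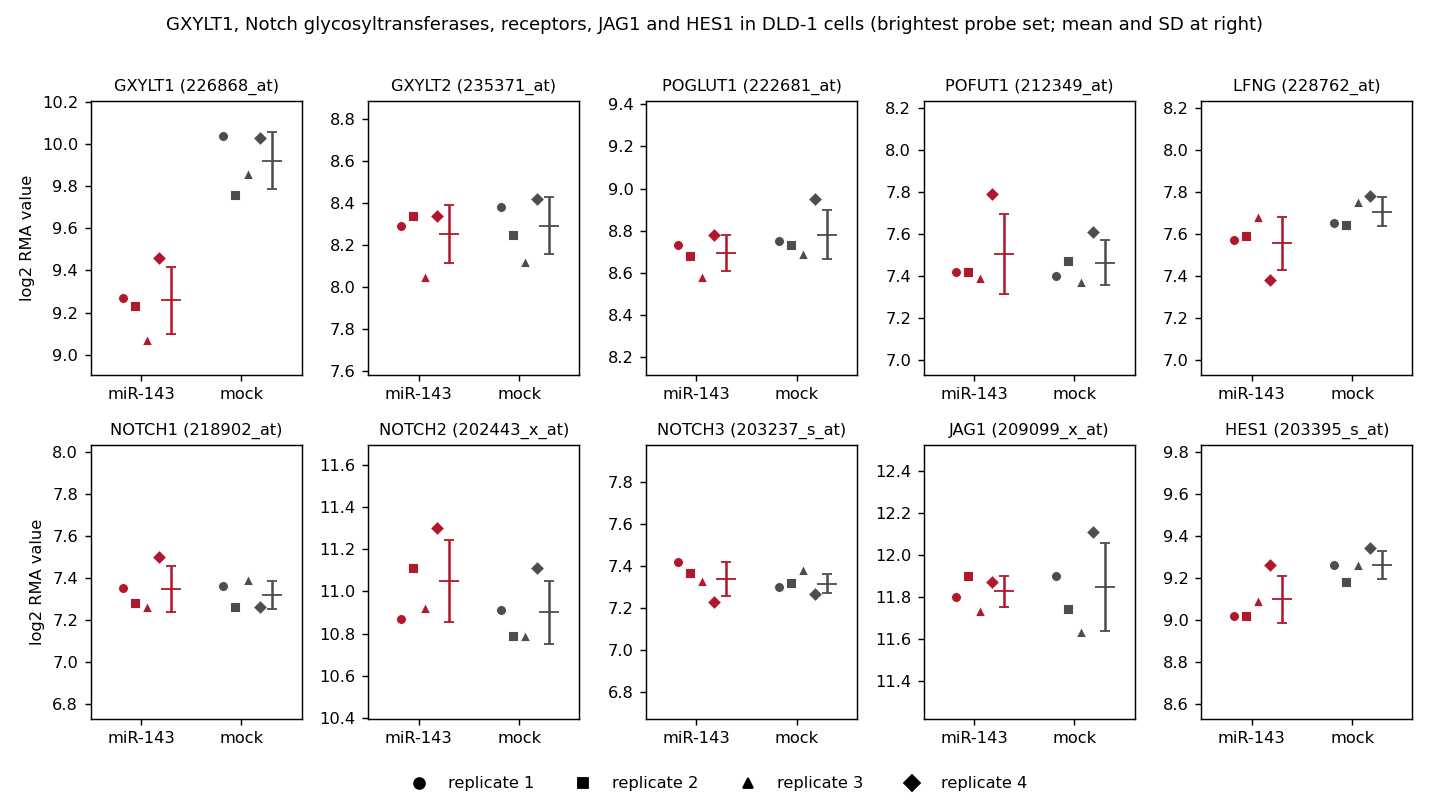
The log2 RMA value of the brightest probe set of each of the 10 genes in every array, with miR-143 (red) left of mock (grey), a marker shape for each replicate number, and the mean and SD (n = 4) at the right of each group. All panels span the same range of log2 units. The groups are separate for GXYLT1, at 9.07 to 9.46 with miR-143 and 9.76 to 10.04 in mock, and overlap for the other 9 genes.

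The 5 genes whose 8 values were most like those of GXYLT1 were HIPK2, ZWILCH, ATP6V1A, UBXN2B and ABHD5, with Pearson correlations of 0.990, 0.988, 0.987, 0.982 and 0.979. They encode a kinase (HIPK2), a kinetochore protein (ZWILCH), a subunit of the vacuolar proton pump (ATP6V1A), a cofactor of the p97 ATPase (UBXN2B) and a co-activator of triglyceride lipase (ABHD5). All 5 had lower values in the 4 miR-143 arrays than in any mock array, as had 1.24% of all genes. Nothing is read from this, since the 5 were chosen for values like those of GXYLT1. After the group means were taken out, the correlations of the 5 genes with GXYLT1 were 0.87 to 0.92. Their log2 differences ran from −0.78 for ZWILCH to −0.40 for HIPK2, and the points share the 2 groups and the high replicate 4. Of the other 9 genes of the list HES1 was most like GXYLT1, with a correlation of 0.84, followed by POGLUT1 with 0.66. Group means were left in here, so a lower level with miR-143 alone raises these values. They are not comparable with the 0.87 to 0.92.

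The other Notch glycosyltransferases did not pass the test. Of the 9 genes other than GXYLT1, limma called 0 without pairs and 0 with pairs, where 0% and 0.790% of all genes were called in either direction. At an unadjusted p under 0.05 there was 1 gene (HES1) without pairs and there were 3 with pairs (HES1, NOTCH2 and LFNG), against 2.41% and 9.55% of all genes. The median log2 difference of the 9 genes was −0.019, beside −0.009 over all genes. Each had an adjusted p of 1 from limma without pairs. Of their 25 probe sets limma also called 0 without and 0 with pairs, where 0.00183% and 0.414% of all probe sets were called. Without pairs 2 had an unadjusted p under 0.05, both of HES1, against 2.47% of all probe sets. With pairs 6 had, those of HES1, NOTCH2, LFNG and GXYLT2, against 8.43%. Several are probe sets of the same gene and so do not count as separate genes.

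GXYLT2, the close relative of GXYLT1 with the same activity, had overlapping groups. Its probe set 235371_at read 8.29, 8.34, 8.05 and 8.34 in miR-143 replicates 1 to 4, against 8.38, 8.25, 8.12 and 8.42 in mock replicates 1 to 4. Replicate 3 was the lowest array of both groups. GXYLT2 differed by −0.04 on the log2 scale, with a 95% interval from limma of −0.24 to 0.16 (exact permutation p = 0.686, two-sided, n = 4 each). Without miR-143 replicate 3 it was 0.03, and without mock replicate 4 it was 0.005. Whether GXYLT1 and GXYLT2 differed in their response was not tested. The second probe set of GXYLT2, 235733_at, had a log2 difference of −0.13 and lay lower with miR-143 in 4 of 4 same-numbered pairs of arrays (adjusted p = 0.499 from limma with pairs).

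POGLUT1, which lays down the glucose that GXYLT1 extends, read 8.73, 8.68, 8.58 and 8.78 in miR-143 replicates 1 to 4, against 8.75, 8.73, 8.69 and 8.95 in mock replicates 1 to 4. Each miR-143 array lay below the mock array of its number, but the groups overlapped. POGLUT1 differed by −0.09 on the log2 scale (95% interval −0.25 to 0.08, exact permutation p = 0.314), and its second probe set had −0.05. The value was −0.03 without mock replicate 4 and −0.06 without both arrays of this number. The 2 POGLUT1 probe sets followed each other closely, with a Pearson correlation of 0.92 over the 8 arrays after the group means were taken out.

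POFUT1, the O-fucosyltransferase, read 7.42, 7.42, 7.39 and 7.79 in miR-143 replicates 1 to 4, against 7.40, 7.47, 7.37 and 7.61 in mock replicates 1 to 4. Replicate 4 was the highest array of both groups, and the other 6 arrays spanned 7.37 to 7.47. This gave a log2 difference of 0.04 (95% interval −0.18 to 0.26, exact permutation p = 0.771), and it was −0.006 without both arrays of replicate 4. The second POFUT1 probe set, 210433_at, had the opposite sign, at −0.02. Both lay near the array medians, with means over the 8 arrays of 7.48 and 7.04.

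LFNG, the lunatic fringe enzyme that extends O-fucose, read 7.57, 7.59, 7.68 and 7.38 in miR-143 replicates 1 to 4, against 7.65, 7.64, 7.75 and 7.78 in mock replicates 1 to 4. Each miR-143 array lay below the mock array of its number, with differences of −0.07 to −0.05 in replicates 1 to 3 and −0.40 in replicate 4. LFNG differed by −0.15 on the log2 scale (95% interval −0.31 to 0.02, exact permutation p = 0.0857; adjusted p = 0.489 from limma with pairs). Left to replicates 1 to 3 it was −0.06. Both LFNG probe sets lay near the array medians.

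**Figure D2:**
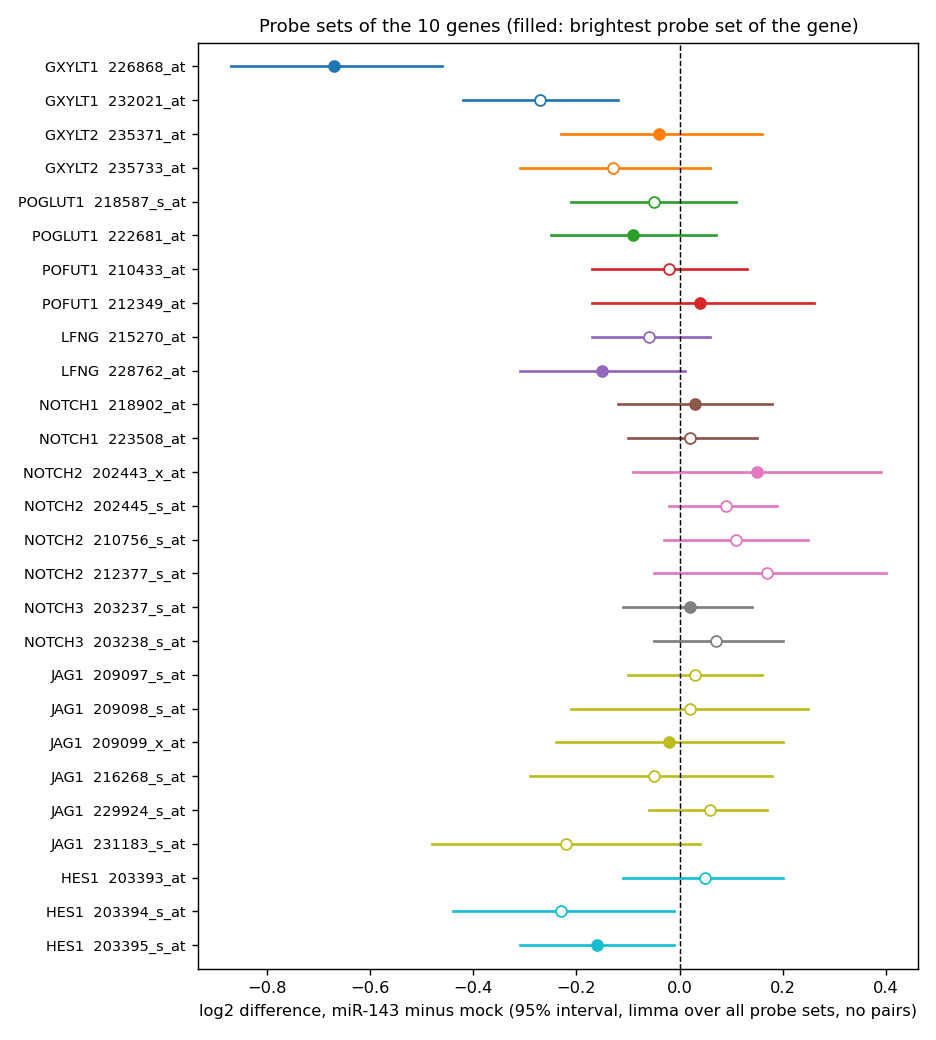
The log2 difference of miR-143 minus mock for all 27 probe sets of the 10 genes, with 95% intervals from limma without pairs over all probe sets; filled points mark the brightest probe set of a gene. The 2 GXYLT1 probe sets lie at −0.67 and −0.27, and the other 25 lie between −0.23 and 0.17, with 12 negative and 13 positive. GXYLT1 was chosen on these values, so its intervals show spread only and are not read as a test.

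The receptors NOTCH1, NOTCH2 and NOTCH3 had small differences, none of which passed. Only that of NOTCH2 stayed positive in all 19 alternatives. NOTCH2, whose probe set 202443_x_at lay far above the array median, read 10.87, 11.11, 10.92 and 11.30 in miR-143 replicates 1 to 4, against 10.91, 10.79, 10.79 and 11.11 in mock replicates 1 to 4. Replicate 4 was the highest array of both groups, and miR-143 lay above mock in 3 of 4 same-numbered pairs. The log2 difference was 0.15 (95% interval −0.09 to 0.39, exact permutation p = 0.257; adjusted p = 0.447 from limma with pairs). It was 0.07 without miR-143 replicate 4, 0.22 without mock replicate 4 and 0.14 without both. All 4 NOTCH2 probe sets were positive, at 0.09 to 0.17. Those at 0.15 and 0.17 (202443_x_at and 212377_s_at) had a Pearson correlation of 0.98 over the 8 arrays and so do not count as separate measurements. Whether any NOTCH2 probe set also reads transcripts of the NOTCH2NL relatives is not known here.

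The probe set 202445_s_at of NOTCH2 was the only one of the 25 outside GXYLT1 whose groups did not overlap. It read 7.49, 7.51, 7.56 and 7.60 in miR-143 replicates 1 to 4, against 7.48, 7.45, 7.46 and 7.43 in mock replicates 1 to 4. The lowest miR-143 array and the highest mock array were about 0.01 apart, near the array median. Its log2 difference was 0.09, with an exact permutation p of 0.0286 (n = 4 each), the smallest that 4 against 4 arrays allow, and an adjusted p of 1 from limma without pairs. Over all probe sets 0.767% had miR-143 above mock without overlap and 1.29% had miR-143 below it.

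NOTCH1 read 7.35, 7.28, 7.26 and 7.50 in miR-143 replicates 1 to 4, against 7.36, 7.26, 7.39 and 7.26 in mock replicates 1 to 4. The arrays lay near the array median and the order changed from replicate to replicate, with 2 of 4 same-numbered pairs lower and 2 higher. The log2 difference was 0.03 (95% interval −0.12 to 0.18, exact permutation p = 0.686), and without both arrays of replicate 4 it was −0.04. NOTCH3 also lay near the array median, at 7.42, 7.37, 7.33 and 7.23 in miR-143 replicates 1 to 4, against 7.30, 7.32, 7.38 and 7.27 in mock replicates 1 to 4. Its log2 difference was 0.02 (95% interval −0.12 to 0.15, exact permutation p = 0.714). Neither gene gives a direction here.

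JAG1, a Notch ligand, had 6 probe sets, most of which did not follow each other. The brightest, 209099_x_at, read 11.80, 11.90, 11.73 and 11.87 in miR-143 replicates 1 to 4, against 11.90, 11.74, 11.63 and 12.11 in mock replicates 1 to 4. All 4 miR-143 arrays lay inside the range of the mock arrays, which mock replicate 4 stretched upward. The log2 difference was −0.02 (95% interval −0.24 to 0.20, exact permutation p = 0.886), and without mock replicate 4 it was 0.07. The probe set 216268_s_at had nearly the same values, with a correlation of 0.95 over the 8 arrays and a log2 difference of −0.05.

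A further JAG1 probe set, 231183_s_at, gave another picture. It read 8.10, 8.38, 8.22 and 7.90 in miR-143 replicates 1 to 4, against 8.48, 8.08, 8.48 and 8.41 in mock replicates 1 to 4. Replicate 2 ran against the other 3 numbers, since its miR-143 array was the highest of its group and its mock array the lowest. The log2 difference was −0.22 (95% interval −0.48 to 0.04, exact permutation p = 0.2; adjusted p = 0.605 from limma with pairs). With both arrays of replicate 2 left out, limma with pairs gave −0.39 with an adjusted p of 0.0494 over all probe sets. That fit leaves out the number that ran the other way, so no result is read from it. In the 14 other alternatives run for probe sets this one was not called. The other 3 JAG1 probe sets had log2 differences of 0.02 to 0.06.

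HES1, the target gene, had the lowest p of the 9 genes. Its probe set 203395_s_at read 9.02, 9.02, 9.09 and 9.26 in miR-143 replicates 1 to 4, against 9.26, 9.18, 9.26 and 9.34 in mock replicates 1 to 4. Each miR-143 array lay below the mock array of its number, and the groups overlapped only through miR-143 replicate 4, which reached the level of the mock arrays. The means were 9.10 ± 0.11 with miR-143 and 9.26 ± 0.07 in mock (SD, n = 4 each), a log2 difference of −0.16 (95% interval −0.31 to −0.01, exact permutation p = 0.0571). This is a level 10.5% lower. HES1 did not pass after adjustment, with adjusted p-values from limma of 1 without pairs, 0.266 with them and 0.257 to 1 over all alternatives.

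The second HES1 probe set, 203394_s_at, lay lower in the same direction. It read 8.51, 8.24, 8.55 and 8.65 in miR-143 replicates 1 to 4, against 8.60, 8.70, 8.91 and 8.66 in mock replicates 1 to 4. The differences by number were unequal, at −0.46 and −0.36 in replicates 2 and 3 but −0.01 in replicate 4. Its log2 difference was −0.23 (95% interval −0.44 to −0.01, exact permutation p = 0.0571; adjusted p = 0.321 from limma with pairs). The remaining HES1 probe set, 203393_at, lay near the array median with a log2 difference of 0.05.

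**Figure D3:**
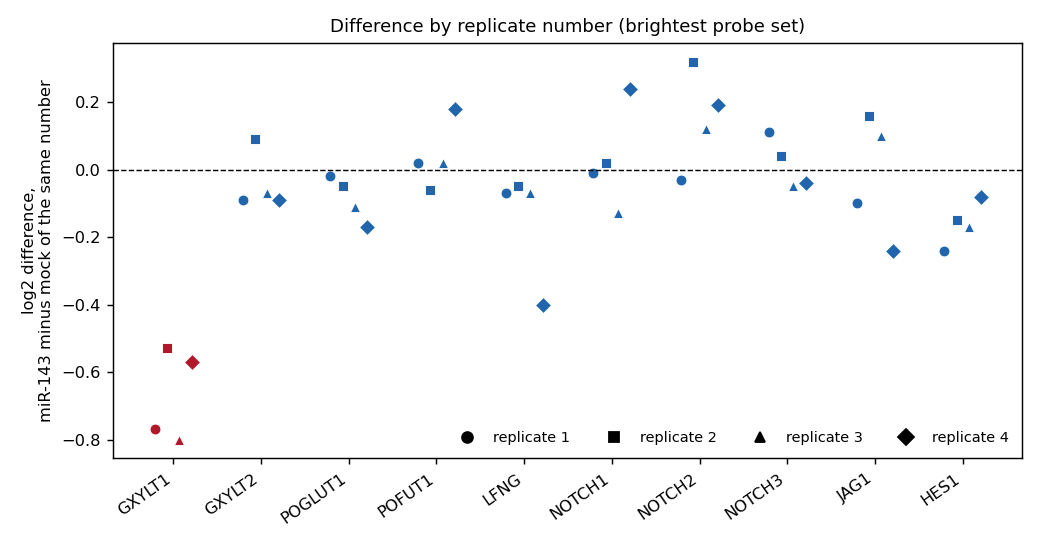
The log2 difference between the miR-143 and the mock array of the same replicate number for the brightest probe set of each gene, with a marker shape for each number and GXYLT1 in red. GXYLT1 lies between −0.80 and −0.53 in all 4, HES1 between −0.24 and −0.08, and JAG1, NOTCH1 and NOTCH3 lie on both sides of 0.

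Other genes of the pathway were read from 8 lists of 74 genes, of which 69 had a probe set of 1 gene. Limma called 0 of the 69 without pairs and 0 with pairs, where 0% and 0.790% of all genes were called. At an unadjusted p under 0.05 without pairs 0 were lower and 4 were higher, where 1.70% and 0.714% of all genes were. With pairs 4 were lower and 6 were higher, where 6.92% and 2.64% of all genes were. Negative log2 differences were found for 43 of the 69 genes, with a median of −0.021, beside 55.6% of all genes and a median of −0.009. The median of the 69 genes was 0.005 without mock replicate 4 and −0.033 without both arrays of this number.

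The list nearest to GXYLT1, other enzymes of Notch O-glycosylation, had 5 of 8 negative and a median of −0.023, which was 0.002 without mock replicate 4 and −0.041 without both. POGLUT2, which adds glucose to EGF repeats, read 8.17, 8.20, 8.03 and 8.24 in miR-143 replicates 1 to 4, against 8.09, 7.99, 7.86 and 8.12 in mock replicates 1 to 4. It lay higher with miR-143 in 4 of 4 same-numbered pairs, with a log2 difference of 0.15 (exact permutation p = 0.114; adjusted p = 0.315 from limma with pairs). MFNG, the manic fringe enzyme, had a log2 difference of 0.05. B4GALT1, a galactosyltransferase that extends the fringe product, is added after its values were seen because it lay farthest from 0 in this list, at −0.19 (exact permutation p = 0.514; limma with pairs, adjusted p = 0.455). The difference was 0 without mock replicate 4 and −0.19 without both. Of 9 genes that supply UDP-xylose or GDP-fucose, the sugar donors of these steps, 7 had negative differences. Their median was −0.029 and their range −0.09 to 0.09. Without mock replicate 4 the median was 0.028, and without both arrays of this number it was −0.02.

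The 4 xylosyltransferases measured outside the Notch pathway lay on both sides of 0, with a median of 0.022. It was 0.039 without mock replicate 4 and 0.064 without both arrays of this number. RXYLT1, which adds xylose to the glycan of dystroglycan, read 11.28, 10.79, 10.87 and 11.81 in miR-143 replicates 1 to 4, against 11.49, 11.37, 11.07 and 12.05 in mock replicates 1 to 4. Its replicates spread over 1 log2 unit in each group or close to it, yet miR-143 lay lower in 4 of 4 same-numbered pairs. RXYLT1 differed by −0.31 on the log2 scale (exact permutation p = 0.371), and limma gave it an adjusted p of 1 without pairs but 0.0686 with them. The difference was −0.12 without mock replicate 4 and −0.33 without both arrays of this number. XYLT2, which starts glycosaminoglycan chains, read 8.32, 8.50, 8.42 and 8.38 in miR-143 replicates 1 to 4, against 8.22, 8.09, 8.05 and 8.36 in mock replicates 1 to 4. It lay higher with miR-143, by 0.22 (exact permutation p = 0.0571; adjusted p = 0.266 from limma with pairs).

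The 5 other receptors and ligands lay close to each other, at −0.02 to 0.08, with a median of 0.059. It was 0.004 without mock replicate 4 and −0.008 without both. NOTCH4, a receptor, had 0.08 and DLL3, a ligand that does not activate Notch, had 0.07, and both read near the array median in every array. Of 8 genes of receptor cleavage 7 were negative, with a median of −0.038. PSENEN, a subunit of the gamma-secretase that frees the inner part of Notch, had a log2 difference of −0.24 (limma with pairs, adjusted p = 0.438), and the protease ADAM10, which makes the cut before it, had −0.09. Without mock replicate 4 these were −0.12 for PSENEN and 0.01 for ADAM10, and without both arrays of this number −0.19 and −0.04. The median of the list was 0.005 without mock replicate 4 and −0.037 without both.

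Among 11 nuclear partners of Notch 6 were negative, with a median of −0.034, and the 2 of lowest p without pairs had positive differences. The median was 0.078 without mock replicate 4 and 0.031 without both arrays of this number. EP300, an acetyltransferase recruited by the Notch complex, read 8.48, 8.55, 8.57 and 8.54 in miR-143 replicates 1 to 4, against 8.43, 8.36, 8.28 and 8.47 in mock replicates 1 to 4. The groups did not overlap, as was so with miR-143 higher in 0.719% of all genes and lower in 1.24%. The log2 difference of EP300 was 0.15 (exact permutation p = 0.0286, the smallest that 4 against 4 arrays allow). Limma with pairs gave it an adjusted p of 0.389. KAT2B, also an acetyltransferase, had a log2 difference of 0.22 (adjusted p = 0.182 from limma with pairs). MAML1, a co-activator that binds the Notch complex, is added after its values were seen because its p with pairs was the lowest of this list. It read 10.03, 10.11, 10.02 and 10.45 in miR-143 replicates 1 to 4, against 9.90, 9.88, 9.79 and 10.11 in mock replicates 1 to 4. MAML1 lay higher with miR-143 in 4 of 4 same-numbered pairs, by 0.23 over all arrays (exact permutation p = 0.114; limma with pairs, adjusted p = 0.0811).

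Of 14 regulators of trafficking and turnover 7 were negative and 7 positive. Their median was 0.002, against −0.007 without mock replicate 4 and −0.036 without both arrays of this number. FBXW7, the ubiquitin ligase subunit that marks the inner part of Notch for breakdown, read 8.81, 8.75, 8.60 and 8.81 in miR-143 replicates 1 to 4, against 8.51, 8.48, 8.32 and 8.74 in mock replicates 1 to 4. It lay higher with miR-143 in 4 of 4 same-numbered pairs, by 0.23 over all arrays (exact permutation p = 0.0571; adjusted p = 0.103 from limma with pairs). Only mock replicate 4 reached into the range of the miR-143 arrays. DTX1, a ubiquitin ligase of the Deltex family, lay near the array median and lower with miR-143 in 4 of 4 same-numbered pairs, with a log2 difference of −0.10 (exact permutation p = 0.0857).

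The 10 genes listed as other targets had negative differences in 9 cases, beside 55.6% of all genes. Only ATOH1 was positive, at 0.07. The median of the list was −0.057 and its range −0.14 to 0.07. Apart from NRARP and HES6 these genes read between 6.71 and 7.74, near the array medians. Whether they lay above background is not known. NRARP, a feedback inhibitor switched on by Notch, read 9.05, 9.14, 8.92 and 9.22 in miR-143 replicates 1 to 4, against 9.26, 9.18, 9.01 and 9.44 in mock replicates 1 to 4. Each miR-143 array lay below the mock array of its number, and the log2 difference was −0.14 (exact permutation p = 0.229; adjusted p = 0.39 from limma with pairs). HES6, a relative of HES1, had a log2 difference of −0.09 (adjusted p = 0.593 from limma with pairs). Whether the genes of this list follow Notch in these cells, and in which direction, was not tested. The median of this list was −0.095 without mock replicate 4 and −0.077 without both arrays of replicate 4, and no gene of it passed.

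**Figure D4:**
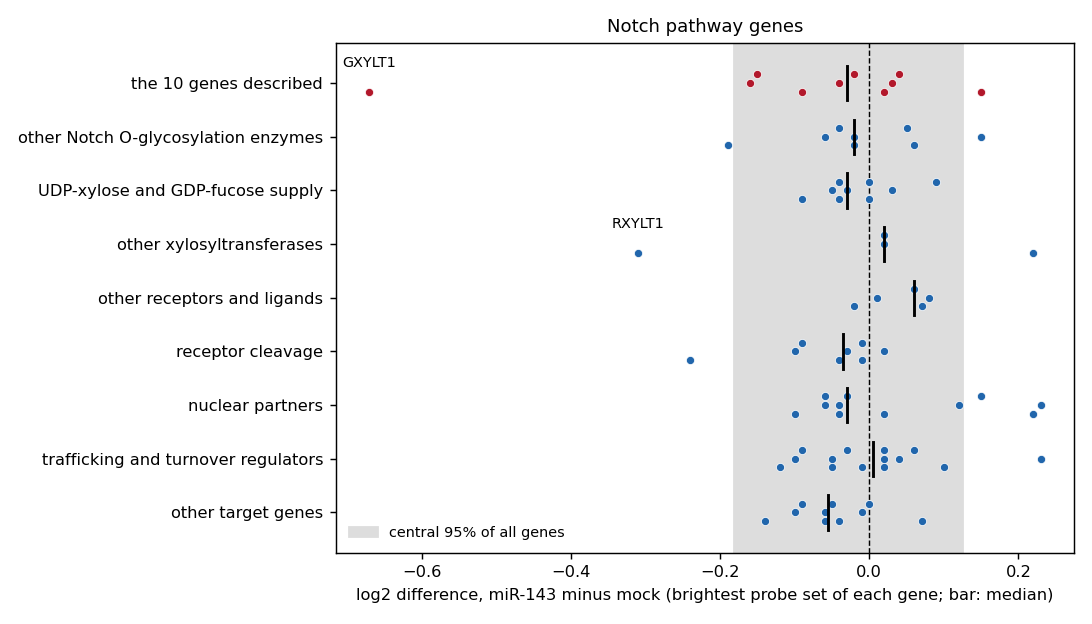
The log2 difference of miR-143 minus mock over all 8 arrays for the 10 genes described (red) and the measured genes of 8 further lists (blue), each by its brightest probe set, with a bar at the median of each list and the central 95% of all genes, −0.181 to 0.125, in grey. GXYLT1 lies at −0.67 and RXYLT1 at −0.31, and the other lists have medians between −0.057 and 0.059.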

How the data were processed

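RNA of 8 DLD-1 cultures was measured on Affymetrix HG-U133 Plus 2.0 arrays. Per the labels, the deposited log2 values were made by the authors with RMA in affy, and no version is given in the sources used here. They were used as deposited. No scanner files were used. Arrays give no depth, so their number limits the precision.

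Symbols came from the platform annotation, updated by Entrez identifier (RefSeq, GRCh38.p14). Of 54675 probe sets 41091 named 1 gene, 1801 several, 11721 none and 62 were controls. Each gene took the values of its brightest probe set (highest mean over the 8 arrays), and all 54613 probe sets that are not controls were also fitted.

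Groups were compared with limma 3.58.1 (lmFit, eBayes, two-sided) in R 4.3.3, with Benjamini-Hochberg adjustment across the whole table and a threshold of 0.05, and single values with an exact two-sided permutation test over 70 arrangements (scipy 1.17.1). Statistics of a gene's brightest probe set are from the fit over genes, those of its other probe sets from the fit over probe sets. The fits were also run on simulated data in which noise was drawn for each gene on its own. Such data lack the component that the real arrays share across genes. The run therefore does not show how the fits perform on these arrays.

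After group means were subtracted, the miR-143 and mock arrays of 1 number correlated at 0.11, 0.17, 0.58 and 0.81 (replicates 1 to 4) over genes, each above the limit of 0.1. Replicates 1 and 2 each correlated more highly, at up to 0.54, with an array of another number in the other group, and over all probe sets replicate 1 had 0.09 with its own number. The study calls the cultures biological replicates. No source used here explains the numbers, so pairing rests on these correlations alone, and values with and without pairs are given.

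Genes, lists and tests were chosen with earlier results of these data known. The named genes are the 10 listed, up to 2 of lowest p in each pathway list, and the 5 most correlated with GXYLT1. Intervals given with genes are 95%.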

Additional observations from a re-analysis of the deposited data

Results flagged for a closer look

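In each group of 4 arrays the highest or lowest array was compared with the other 3 for every probe set of the 10 genes, and 4 of 54 such groups had 1 array beyond Dixon's 95% limit, where chance gives about 5% of groups. For GXYLT2 (235371_at) miR-143 replicate 3 lay low, with 8.05, while the remaining miR-143 arrays lay at 8.29 to 8.34. For POFUT1 (212349_at) miR-143 replicate 4 lay high, at 7.79 against 7.39 to 7.42. For JAG1 mock replicate 4 lay high in 209098_s_at, at 8.16 against 7.99 to 8.0 in the other mock arrays. In its probe set 231183_s_at mock replicate 2 lay low, at 8.08 against 8.41 to 8.48. Replicate 4 accounts for 2 of these 4 arrays. No array of GXYLT1, NOTCH2 or HES1 was beyond the limit.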

How the results depend on the processing

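The number of genes called by limma moved with the processing. It was 0 lower and 0 higher without pairs, 123 and 33 with the replicate number as a block, 36 and 20 with array weights, 31 and 22 after cyclic loess, and 30 and 13 without both arrays of replicate 4. With the block and replicate 1, 2, 3 or 4 left out it was 57, 68, 33 and 42 lower and 16, 11, 9 and 16 higher, and with 1 array left out and no block it was 0 and 0. Taking the probe set that varied most (by interquartile range) for each gene, 1 gene was called lower. The number of the 9 genes called stayed at 0 in all 19 alternatives, and so did the pathway genes in all 15 alternatives run for them. The block changed no call of the 9 genes or of the pathway genes. Of the probe sets of the 9 genes 0 were called in 14 of 15 alternatives. With the block and without replicate 2, which ran against the other numbers in this probe set, 1 was called, JAG1 231183_s_at. The share of all probe sets called in that fit is not given here. Over the fits with 1 number or array left out the count thus ran from 0 to 1.

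The log2 difference of GXYLT1 was negative in all 19 alternatives, at −0.73 to −0.60 with 1 array left out and −0.71 to −0.62 with the block and 1 number left out. It moved to −0.47 with the mean of both probe sets, the second of which gave −0.27 alone.

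Direction turned for 5 of the 9 genes, none of them called, and the cause was not tested. JAG1 was 0.04 with array weights, 0.05 after cyclic loess and 0.06 without both arrays of replicate 4, with −0.09 to 0.07 with 1 array left out and −0.08 to 0.06 with the block and 1 number left out (0.009 without replicate 1). NOTCH1 was −0.02 with array weights and −0.04 without both arrays of replicate 4, with −0.02 to 0.06 and −0.04 to 0.08 in the same fits. POFUT1 was −0.006 without both arrays of replicate 4, with −0.05 to 0.09 and −0.006 to 0.07. NOTCH3 ran from −0.01 to 0.05 and from −0.02 to 0.04, with −0.001 without mock replicate 4, and GXYLT2 from −0.10 to 0.03 with 1 array left out. HES1, LFNG, NOTCH2 and POGLUT1 kept their direction in all 19 alternatives. NOTCH1, NOTCH3 and POFUT1 lie below the median gene and gave no value when dim genes were left out.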
